A study of Mus musculus with 75 samples.

Results

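The data described here are the IL-1 response of wild-type haematopoietic progenitor cells, labelled HPC, from 8-week-old mice. Its members are 6 RNA-seq libraries of the 75 in the series, 3 from mice given 0.5 µg IL-1 per mouse for 3 days and 3 from mice given the vehicle PBS for 3 days, chosen by their titles. All genes of the count table were examined. The study deals with Kmt2c, a histone H3 lysine 4 methyltransferase, and with how blood stem and progenitor cells that lack it behave under stress. Further groups are used only for setting this response in context. They are HPC with Kmt2c deleted (Kmt2c f/f; Vav-Cre, called ko here) given IL-1 or PBS with 3 libraries each, wild-type HSC given IL-1 (3 libraries) or PBS (4 libraries), and wild-type HSC, HPC, pGM and GMP (successive steps towards granulocytes and monocytes) with no treatment, 4 libraries each. Vav-Cre makes the recombinase Cre under a promoter active throughout the blood lineage. No Cre is named for the wild type, so ko and wild type may differ in Cre as well as in Kmt2c. The labels name neither the form of IL-1 nor the antibodies of the HPC gate.

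IL-1 is an inflammatory cytokine made chiefly by myeloid and stromal cells. It binds a receptor made of IL1R1 and its partner IL1RAP, which passes the signal through MYD88 and IRAK kinases to NF-kB. In mouse bone marrow, IL-1 is known to act directly on stem and progenitor cells and to push them towards making granulocytes and monocytes, a state that depends on the transcription factor PU.1.

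The wild-type HPC libraries held 34479368, 31109459 and 32855409 counted reads with IL-1, against 39683021, 26997636 and 28658727 with PBS. Levels are given as CPM, read counts relative to the library total after TMM scaling, with 1 value per library in the order of replicate numbers 1, 2 and 3. The cells carried the marks of progenitors. Kit, the stem cell factor receptor, lay between 374 and 943 CPM in all 6 libraries, Flt3 between 553 and 1072 CPM and Cd34 between 1067 and 1368 CPM. Cd48, which separates HPC from stem cells, lay between 237 and 436 CPM, and the stem cell antigen gene Slamf1 did not pass 3.95 CPM. The mature granulocyte gene Ly6g was at 0 in every library, and Cd3e of T cells did not pass 0.251 CPM. Kmt2c itself had 38, 43.9 and 46.0 CPM with IL-1, against 29.5, 60.4 and 66.4 CPM with PBS, and was not called (adjusted p = 0.83, edgeR); in ko HPC it lay between 12.4 and 21.9 CPM. IL-1 replicate 1 stood apart from the other libraries. On the first principal component, which holds 33.4% of the variance, it scored −49.0, and the other 5 lay between −15.4 and 27.6. Its summed level of ribosome biogenesis and MYC target genes was 18060 CPM, against 9078 to 13400 CPM in the other 5 libraries, and its unfolded protein response list summed to 12140 CPM, against 5821 to 7122 CPM. Results are therefore also given without that library. The sexes, read from Xist and Y-linked genes, were mixed. IL-1 replicate 1 and PBS replicates 1 and 2 were Xist-positive, while IL-1 replicates 2 and 3 and PBS replicate 3 held Y-linked reads. The sexes were thus not balanced between IL-1 and PBS.

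Genes higher with IL-1 included myeloid surface and cytokine receptors, the Toll-like receptor chaperone gene Unc93b1 and the chemokine gene Ccl5. Genes lower with IL-1 included the stem cell regulators Mycn, Hlf and Angpt1. Of 15951 genes tested, 112 were higher with IL-1 (0.702% of the genes tested) and 39 were lower (0.244%). A gene was called at an adjusted p under 0.05 from edgeR's quasi-likelihood test, which gives 0.947% in either direction. In each of the 151 called genes the 3 IL-1 libraries did not overlap the 3 PBS libraries, a pattern that 2243 of all genes tested also had (14.1%). Among the called genes, 145 are protein coding. The median change over all genes tested was −0.01 on the log2 scale, and 48.8% of them had a positive fold change. The shares called over all genes tested, 0.702% higher and 0.244% lower, are the background for the list counts below. With the replicate number as a block, 215 genes were higher (1.35%) and 100 lower (0.627%), 1.97% in all, and 149 of the 151 genes kept their call. Leaving out IL-1 replicate 1 gave 106 higher (0.644%) and 39 lower genes (0.237%), of which 116 were among the 151. Leaving out PBS replicate 2 gave 55 higher and 14 lower genes. Without IL-1 replicate 2 there were 75 higher and 20 lower genes, and without IL-1 replicate 3 there were 77 higher and 18 lower. In a fit of the 27 libraries of the IL-1 experiment, which includes HSC, 98 of the 151 genes kept their call.

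**Figure D1:**
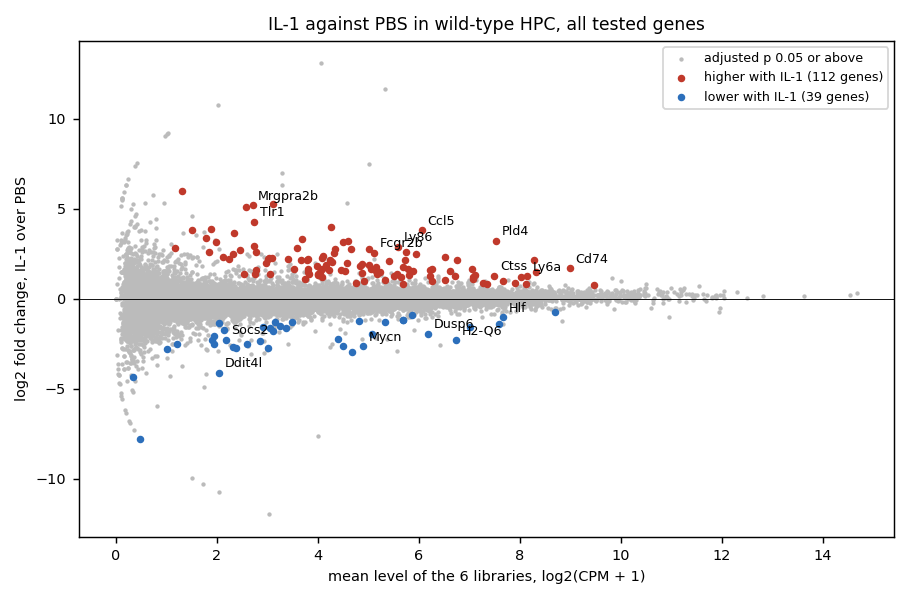
Each point is a gene; the horizontal axis is its mean level over the 6 wild-type HPC libraries in log2(CPM + 1) and the vertical axis its log2 fold change, IL-1 over PBS. The 112 genes called higher (red) include highly expressed genes such as Pld4 and Cd74, and the 39 called lower (blue) include Mycn, Dusp6 and H2-Q6.

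The chemokine gene Ccl5 (chr11:83525778-83530518, GRCm38) was among the most changed. CCL5 draws T cells and monocytes. It had 177, 99.3 and 91.4 CPM with IL-1, against 7.09, 10.1 and 8.92 CPM with PBS. Every IL-1 library lay far above every PBS library, and the log2 fold change was 3.82 ± 0.32 (SE; adjusted p = 0.000112, edgeR). Pld4 (chr12:112760655-112768990), an endolysosomal nuclease that trims single-stranded DNA and RNA and so limits nucleic acid sensing, had 511, 260 and 220 CPM with IL-1, against 37.3, 27.8 and 40.3 CPM with PBS. This is a log2 fold change of 3.23 ± 0.32 (adjusted p = 0.000224, edgeR), and IL-1 replicate 1 was the highest library for both genes. Fcgr2b (chr1:170958617-170976547), the inhibitory receptor for IgG, had 76.7, 46.7 and 48.1 CPM with IL-1, against 10.7, 9.68 and 8.92 CPM with PBS, with a log2 fold change of 2.55 ± 0.23 (adjusted p = 0.000151, edgeR). Sapcd1, a gene of little known function, was low but even, at 7.33, 7.5 and 7.73 CPM with IL-1 and 0.701, 0.416 and 0.63 CPM with PBS. Lpxn, which encodes the focal adhesion adaptor leupaxin, had 45.3, 61.6 and 57.3 CPM with IL-1, against 7.74, 7.56 and 8.49 CPM with PBS. All 5 of these genes kept their call in each of 16 alternative analyses, as did 48 of the 151 called genes.

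By size of the change, the 15 leading protein-coding genes that averaged 5 CPM or more with IL-1 were Mrgpra2a, Mrgpra2b, Tlr1, Ehd3, Olfm1, Ccl5, Sapcd1, Igsf6, Siglece, Pld4, Cd22, Ms4a4c, Gpr183, Ly86 and Nsg2, with log2 fold changes between 2.83 and 5.27. Mrgpra2a and Mrgpra2b are neighbouring paralogs of the Mas-related receptor family, and reads may have been counted for either. Mrgpra2a had 28.1, 7.30 and 9.01 CPM with IL-1, against 0.551, 0.104 and 0.464 CPM with PBS. Siglece and Cd22 encode inhibitory receptors that bind sialic acid. Siglece had 72.9, 25.3 and 27.3 CPM with IL-1, against 3.31, 4.44 and 5.60 CPM with PBS, with IL-1 replicate 1 the highest, and the call held without that library (adjusted p = 0.00339, edgeR) but not in a fit of 27 libraries that includes HSC (0.0524). Ehd3, a protein of endosome recycling, had 37.4, 29.4 and 35.4 CPM with IL-1 and 1.00, 1.28 and 4.18 CPM with PBS. Gpr183, a receptor for oxysterols that guides immune cells, and Tlr1 lost their call in each of the 6 fits that left out 1 library (adjusted p 0.0636 to 0.152 for Gpr183 and 0.0759 to 0.186 for Tlr1, edgeR). Olfm1 lost it in 4 of these 6 fits, without IL-1 replicate 1 or any 1 of the PBS replicates (0.0796 to 0.181). Cd22 lost it without PBS replicate 2 (0.104) or 3 (0.0655), and Mrgpra2a without PBS replicate 2 (0.051). Cd22 and Gpr183 also lost their calls in the fit of 27 libraries (adjusted p = 0.0734 and 0.2, edgeR).

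**Figure D2:**
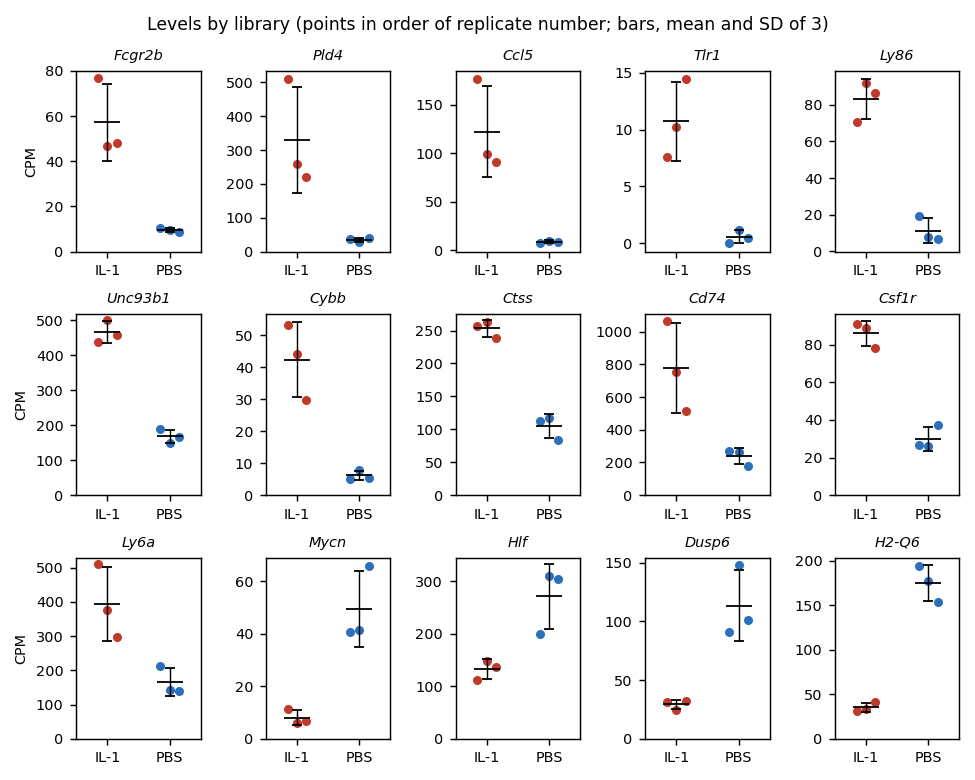
Levels in CPM of 15 genes in the 3 IL-1 libraries (red) and the 3 PBS libraries (blue) of wild-type HPC, points in order of replicate number, with the mean and SD of 3. The groups do not overlap in any of the 15; the first 11 genes are higher with IL-1 and Mycn, Hlf, Dusp6 and H2-Q6 are lower.

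Toll-like receptors recognise microbial molecules at the cell surface or in endosomes. Of 20 genes of these receptors and their partners, 3 were higher and 0 lower, and the median change was 0.43; without IL-1 replicate 1, 2 were higher and the median was 0.72. Unc93b1, the chaperone that carries nucleic acid-sensing receptors to endosomes, had 439, 500 and 458 CPM with IL-1, against 188, 149 and 167 CPM with PBS (log2 fold change 1.47 ± 0.16, adjusted p = 0.000411, edgeR). Ly86 encodes MD-1, the partner of CD180 (RP105) on myeloid and B cells. It had 70.8, 92.1 and 86.6 CPM with IL-1, against 19, 7.5 and 6.76 CPM with PBS (log2 fold change 2.90 ± 0.37, adjusted p = 0.00124, edgeR). Both rises were even across the IL-1 libraries. Tlr1, which pairs with TLR2 to bind bacterial lipopeptides, was low, at 7.55, 10.2 and 14.5 CPM with IL-1 and 0.025, 1.18 and 0.497 CPM with PBS. Tlr2 averaged 21.3 CPM with IL-1 and 12.2 CPM with PBS and was not called (adjusted p = 0.30, edgeR).

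The widest group was that of myeloid surface proteins and cytokine receptors. Of 49 genes tested, 10 were higher and 0 lower, 44 had a positive fold change (48.8% of all genes tested did) and the median change was 0.71. With the replicate number as a block 14 were higher, and without IL-1 replicate 1 there were 11. The called genes were Fcgr2b, Cx3cr1, Cd68, Ccr2, Il6st, Csf2rb2, Itgam, Ly6a, Itgb2 and Csf1r. In the fit of 27 libraries, which includes HSC, 5 of them lost their call, Cx3cr1 (adjusted p = 0.227), Ccr2 (0.207), Csf2rb2 (0.0716), Itgam (0.156) and Csf1r (0.381, edgeR). Csf1r, the receptor for the growth factor of monocytes and macrophages, had 91.0, 88.8 and 78.5 CPM with IL-1, against 26.8, 26.1 and 37.3 CPM with PBS (log2 fold change 1.52 ± 0.27, adjusted p = 0.0111, edgeR). Ccr2 and Cx3cr1 encode chemokine receptors of monocytes. Ccr2 had 33.8, 35.7 and 40.0 CPM with IL-1, against 11.9, 7.22 and 8.55 CPM with PBS, and Cx3cr1 averaged 28.9 CPM with IL-1 and 6.56 CPM with PBS. Il6st, which encodes gp130, the shared signal chain of the IL-6 family, had 58.6, 81.5 and 95.0 CPM with IL-1 and 20.3, 22.1 and 26.2 CPM with PBS (log2 fold change 1.78 ± 0.28, adjusted p = 0.00505, edgeR). Csf2rb2, the IL-3-specific beta chain of mouse, rose by 1.58 ± 0.25 on the log2 scale, while its near copy Csf2rb, the common beta chain of the IL-3, IL-5 and GM-CSF receptors, averaged 142 CPM with IL-1 and 79.6 CPM with PBS (adjusted p = 0.08, and 0.0143 with the replicate block, edgeR); reads of this pair may be shared. The other genes that the block added were Il10ra, Ly6e and Ifngr2, of which Il10ra, a chain of the IL-10 receptor, was also called without IL-1 replicate 1 (adjusted p = 0.0815 over all libraries, 0.00291 with the block and 0.0405 without that library, edgeR).

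Itgam and Itgb2 code for the alpha and beta chains of the integrin Mac-1. Itgam had 204, 214 and 182 CPM with IL-1, against 41.9, 57.5 and 93.2 CPM with PBS, and Itgb2 265, 146 and 173 CPM with IL-1, against 75.4, 81.9 and 78.2 CPM with PBS. Mac-1 is a lineage antigen in many sorts of progenitors. Ly6a encodes Sca-1, an antigen often used to gate mouse progenitors and one whose level is known to respond to inflammation. It had 510, 376 and 297 CPM with IL-1, against 213, 144 and 140 CPM with PBS (log2 fold change 1.25 ± 0.21, adjusted p = 0.00887, edgeR), and the lowest IL-1 library was above the highest PBS library. Without PBS replicate 2, Itgam, Itgb2 and Ly6a lost their calls (adjusted p 0.0598, 0.0754 and 0.0879), as did Itgb2 and Ly6a without PBS replicate 3 (0.0552 and 0.0608) and Csf1r without PBS replicate 1 or 2 (0.055 and 0.104, edgeR). The part of the sort gate in these values was not tested, and in these bulk samples more cells of a type and more RNA per cell cannot be told apart.

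Cathepsin S (Ctss), which trims the invariant chain of MHC class II, had 257, 263 and 239 CPM with IL-1, against 112, 118 and 83.7 CPM with PBS (log2 fold change 1.28 ± 0.18, adjusted p = 0.00196, edgeR). Cathepsin H (Ctsh) had 73.5, 103 and 78.0 CPM with IL-1, against 20.4, 17.4 and 18.3 CPM with PBS, and the asparaginyl endopeptidase gene Lgmn had 81.9, 99.4 and 90.9 CPM with IL-1, against 18.7, 12 and 13.8 CPM with PBS. These 3 genes were called in all 16 alternatives. Cathepsin Z (Ctsz) and the carboxypeptidase gene Ctsa were higher by 1.19 ± 0.25 and 0.80 ± 0.16 on the log2 scale, and each lost its call in 4 of the 6 fits without 1 library (adjusted p 0.0537 to 0.202 for Ctsz and 0.0508 to 0.123 for Ctsa, edgeR). Ctsa also lost its call in the fit of 27 libraries (adjusted p = 0.0531, edgeR). Of 14 MHC class II genes, 2 were higher, Ctss and the invariant chain gene Cd74. Cd74 had 1062, 754 and 517 CPM with IL-1, against 271, 263 and 181 CPM with PBS (adjusted p = 0.0108, edgeR). It lost its call without PBS replicate 2 (0.0767) or 3 (0.0746) and in the fit of 27 libraries (0.0701, edgeR). The class II chain gene H2-Aa averaged 114 CPM with IL-1 and 50.8 CPM with PBS and was not called (adjusted p = 0.13, edgeR), nor was the class II transactivator Ciita, at 4.86 CPM with IL-1 and 3.72 CPM with PBS (adjusted p = 0.81, edgeR).

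Granule genes and some genes of phagocytes come next. Mpeg1 encodes perforin-2, a pore-forming protein of phagosomes. It had 35.3, 49.3 and 51.0 CPM with IL-1, against 10.8, 13.4 and 10.8 CPM with PBS (log2 fold change 1.96 ± 0.20, adjusted p = 0.000252, edgeR; 0.261 in the fit of 27 libraries). Of 18 genes of secondary and tertiary granules, 1 was higher, Cybb, the catalytic subunit of the phagocyte NADPH oxidase, with 53.1, 44.2 and 29.9 CPM with IL-1, against 5.16, 7.84 and 5.50 CPM with PBS (log2 fold change 2.78 ± 0.36, adjusted p = 0.00124, edgeR; 0.108 in the fit of 27 libraries). With the block, Ncf1, a cytosolic subunit of the same oxidase, was also higher and Padi4 lower (adjusted p = 0.0213 and 0.00749, edgeR). Of 18 genes of primary granules and their stage, 2 were higher, Igsf6 and Ms4a3. Ms4a3, a marker of granulocyte-monocyte progenitors, had 28.6, 30.5 and 37.8 CPM with IL-1, against 5.24, 7.32 and 4.41 CPM with PBS. The granule genes themselves did not pass the test. Mpo, which codes for myeloperoxidase, had 212, 527 and 849 CPM with IL-1 and 837, 499 and 852 CPM with PBS, and the elastase gene Elane had 11.3, 29.3 and 108 CPM with IL-1 and 57.2, 29.1 and 52.7 CPM with PBS; the groups overlapped in both. Galectin-1 (Lgals1), which binds cell surface sugars, had 524, 456 and 533 CPM with IL-1, against 154, 79.5 and 101 CPM with PBS (log2 fold change 2.17 ± 0.22, adjusted p = 0.000252, edgeR).

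Genes of secreted defence proteins were fewer. Of 18, 2 were higher, the complement component C3 and the protease inhibitor gene Serpina3f, and with the replicate block 5, adding Wfdc21, Hp and Lcn2. Serpina3f had 21.6, 22.6 and 20.7 CPM with IL-1, against 9.47, 7.84 and 7.89 CPM with PBS. C3 had 8.73, 4.27 and 7.29 CPM with IL-1, against 1.33, 0.590 and 1.62 CPM with PBS, and its call was lost in all of the fits without 1 library except that without IL-1 replicate 2 (adjusted p 0.0818 to 0.214, edgeR). Serpina3f lost it in 4 of 6 (0.0666 to 0.121). C3 also lost its call in the fit of 27 libraries (adjusted p = 0.108, edgeR). Lcn2, the iron-withholding lipocalin known as an IL-1 target in other cells, had 106, 11.2 and 15.5 CPM with IL-1, against 2.23, 0.798 and 0.265 CPM with PBS. Its groups did not overlap, yet the spread among the IL-1 libraries was wide. It was not called by edgeR without a block (adjusted p = 0.165) and was called with the replicate block (0.0467) and by DESeq2 (0.000634). Among 23 cytokine and chemokine genes 2 were higher, Ccl5 and Ebi3, the shared subunit of IL-27 and IL-35. Ebi3 had 174, 135 and 123 CPM with IL-1, against 49.0, 38.2 and 61.6 CPM with PBS (log2 fold change 1.54 ± 0.21, adjusted p = 0.00164, edgeR).

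Genes of the IL-1 pathway itself did not pass the test without the block. Of 27 genes of the IL-1 receptors and their signalling, 0 were called in the unblocked fit, and 14 had a positive fold change (48.8% of all genes tested did). At an unadjusted level the test found 1610 genes of all those tested with p under 0.05. Il1r1 had 53.6, 64.8 and 74.4 CPM with IL-1, against 39.7, 85.2 and 76.7 CPM with PBS (log2 fold change −0.06 ± 0.26), and Il1rap had 14.7, 18.3 and 20.1 CPM with IL-1, against 6.96, 16.9 and 13.5 CPM with PBS. The decoy receptor gene Il1r2 had 3.57, 4.43 and 4.72 CPM with IL-1, against 13.6, 12.3 and 8.06 CPM with PBS. Its groups did not overlap and it did not pass the test (adjusted p = 0.0908, and 0.0746 with the block, edgeR), but was called lower by DESeq2 (0.00656) and without the filter on low counts (0.0196, edgeR). Il1rn, which encodes the IL-1 receptor antagonist, was not called (adjusted p = 0.192, edgeR) but was called higher by DESeq2 (0.0258). Its log2 fold change lay between 2.00 and 4.49 in the 14 alternatives that hold it. With the block 1 gene of the list was lower, Peli1, a ubiquitin ligase of the IRAK complex (adjusted p = 0.0489, edgeR). Of 27 genes of NF-kB subunits and feedback targets, 1 was higher, Bcl2a1d, a survival gene of the BCL2 family, which averaged 4.43 CPM with IL-1 and 0.430 CPM with PBS; the Bcl2a1 copies are near-identical and may share reads. Nfkbia, the inhibitor that NF-kB itself induces, had 79.5, 93.5 and 90.4 CPM with IL-1, against 101, 83.2 and 91.5 CPM with PBS, and the groups overlapped.

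Of 39 myeloid transcription factor genes 1 was lower, Mycn, and with the block Irf8 and Batf were also higher. Irf8, which directs monocyte and dendritic fate, averaged 164 CPM with IL-1 and 85.5 CPM with PBS (adjusted p = 0.0614 without and 0.024 with the block, edgeR), and Batf averaged 41.6 CPM with IL-1 and 25.4 CPM with PBS. Spi1, which encodes PU.1, had 42.4, 70.0 and 70.4 CPM with IL-1, against 12.3, 45.1 and 76.6 CPM with PBS, so the PBS libraries spanned the IL-1 range (adjusted p = 0.888, edgeR). Cebpa had 6.28, 2.71 and 5.04 CPM with IL-1, against 7.91, 5.45 and 6.76 CPM with PBS, and also overlapped.

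Among the lowered genes the clearest were Mycn, H2-Q6 and Dusp6. Mycn (chr12:12936093-12941914), the MYC family member of stem and early progenitor cells, had 11.3, 5.84 and 6.82 CPM with IL-1, against 40.7, 41.5 and 65.9 CPM with PBS (log2 fold change −2.62 ± 0.31, adjusted p = 0.000622, edgeR). Myc itself had 834, 312 and 323 CPM with IL-1, against 560, 502 and 652 CPM with PBS, and was not called; its highest value was in IL-1 replicate 1. Of 35 stem cell associated genes, 3 were lower and 0 higher, 7 had a positive fold change (48.8% of all genes tested did) and the median change was −0.45. With the block 5 were lower, and without IL-1 replicate 1 there were 2. The 3 genes of the unblocked fit were Mycn, Hlf and Angpt1. Hlf, a transcription factor of stem cells, had 111, 148 and 137 CPM with IL-1, against 199, 311 and 304 CPM with PBS (adjusted p = 0.0145, edgeR; 0.0517 without IL-1 replicate 1, 0.0666 without IL-1 replicate 3, 0.0829 without PBS replicate 2 and 0.0583 without PBS replicate 3). Angpt1, a ligand of the TIE2 receptor, had 68.2, 128 and 122 CPM with IL-1, against 192, 364 and 269 CPM with PBS (adjusted p = 0.016, edgeR; 0.096 without PBS replicate 2). Msi2 and Hmga2 were added by the block (adjusted p = 0.0183 and 0.0462, edgeR). Mecom had 17.4, 33.9 and 35.0 CPM with IL-1, against 28.6, 40.4 and 44.8 CPM with PBS, which overlap.

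By size of the change, the 15 leading lowered protein-coding genes, leaving out predicted ones and those under an average of 5 CPM with PBS, were Ddit4l, Ebf1, Trib2, Gfra1, Trpc6, Mycn, Ccr9, Cplx2, Lpar1, H2-Q6, Socs2, Gem, Dusp6, Cpxm1 and Aif1l, with log2 fold changes between −4.12 and −1.73. Ddit4l, an inhibitor of mTOR signalling, had 0.373, 0.128 and 0.501 CPM with IL-1, against 6.19, 8.68 and 2.75 CPM with PBS. Dusp6, a phosphatase that ERK signalling induces and that switches ERK off, had 31.7, 24.9 and 31.8 CPM with IL-1, against 90.7, 148 and 101 CPM with PBS (log2 fold change −1.94 ± 0.22, adjusted p = 0.000411, edgeR), and it was the 1 called gene of 27 immediate early genes. Socs2, a feedback inhibitor that STAT5 induces, had 1.83, 1.08 and 0.720 CPM with IL-1, against 7.36, 5.07 and 5.11 CPM with PBS, and was the 1 called gene of 29 in the JAK-STAT list (with the block Bcl2l1 was also lower). Trib2, a pseudokinase, had 1.34, 0.638 and 1.25 CPM with IL-1, against 5.26, 9.89 and 6.67 CPM with PBS. Mycn, H2-Q6, Dusp6, Ddit4l, Trib2 and Trpc6 kept their call in all 16 alternatives. Lpar1 kept it in all 6 fits without 1 library but not in the fit of 27 libraries (0.204). Of the 6 fits, Ebf1 lost it in 5 (adjusted p 0.0781 to 0.242), Aif1l in 5 (0.0736 to 0.16), Cpxm1 in 5 (0.0548 to 0.131), Socs2 in 4 (0.055 to 0.0865), Cplx2 in 4 (0.0776 to 0.115), Ccr9 in 3 (0.0684 to 0.0803), Gfra1 in 2 (0.0689 and 0.0767) and Gem in 1 (0.0767, without PBS replicate 2, edgeR). Ebf1 and Aif1l also lost their calls in the fit of 27 libraries (adjusted p = 0.11 and 0.0973, edgeR).

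H2-Q6, H2-Q7 and H2-Q5, non-classical MHC class I genes of the Qa-2 region on chromosome 17, were lower together. H2-Q6 had 31.1, 33.9 and 41.0 CPM with IL-1, against 194, 178 and 154 CPM with PBS (log2 fold change −2.31 ± 0.24, adjusted p = 0.000252, edgeR). H2-Q7 had 71.1, 54.1 and 69.1 CPM with IL-1, against 242, 189 and 141 CPM with PBS (adjusted p = 0.00525, edgeR). H2-Q5 was lower by a log2 fold change of −1.28 ± 0.23 and lost its call without IL-1 replicate 2 or 3 or PBS replicate 1 (adjusted p 0.0685, 0.0674 and 0.0506, edgeR). The 3 genes are close copies, so their reads may be counted for one another. Of 19 genes of MHC class I and antigen processing tested, 2 were lower and 0 higher; B2m, the light chain of class I molecules, averaged 3331 CPM with IL-1 and 4669 CPM with PBS and was not called (adjusted p = 0.323, edgeR), nor was the classical gene H2-K1 (adjusted p = 0.577, edgeR).

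Of 33 lymphoid priming genes, 2 were lower, Ccr9, a homing receptor of thymus-seeding progenitors, and Ebf1, which sets B cell fate. Ccr9 had 7.08, 5.17 and 6.01 CPM with IL-1, against 18.1, 69.6 and 23 CPM with PBS. Ebf1 had 4.07, 3.86 and 8.76 CPM with IL-1, against 54.3, 63.6 and 12 CPM with PBS, and its call was lost with the replicate block (adjusted p = 0.139, edgeR). In 2 other B-lineage genes PBS replicate 3 was likewise the lowest PBS library, and neither passed the test. Vpreb1 averaged 4.80 CPM with IL-1 and 31.0 CPM with PBS (adjusted p = 0.0504, edgeR), and Igll1 averaged 11.2 CPM with IL-1 and 81.9 CPM with PBS (adjusted p = 0.0659, edgeR). The lymphoid genes Flt3, Dntt and Il7r were not called. Dntt had 1202, 2592 and 3424 CPM with IL-1, against 2325, 1792 and 1393 CPM with PBS, and Il7r 52.3, 37.4 and 54.9 CPM with IL-1, against 42.0, 39.7 and 20.8 CPM with PBS; both pairs of groups overlapped. The median change of the 33 genes was 0.18.

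Other groups gave few or 0 calls. Among 49 DNA replication genes, 50 mitosis genes, 28 cyclin and inhibitor genes, 64 cytosolic ribosomal protein genes, 48 ribosome biogenesis genes, 51 nuclear and 13 mitochondrial genes of oxidative phosphorylation and 19 genes of mast cells, basophils and eosinophils, 0 were called with or without the replicate block. The median change of the 48 ribosome biogenesis genes was 0.08; without IL-1 replicate 1 it was −0.44, and 1 of them was lower. Mki67, a marker of cycling cells, had 25.5, 52.7 and 63.8 CPM with IL-1, against 59.4, 56 and 49.97 CPM with PBS, and Ccnd1 28.1, 8.61 and 8.76 CPM with IL-1, against 14.6, 11.7 and 15.7 CPM with PBS. All 13 mitochondrial genes had a negative fold change, with a median of −0.63; mitochondrial reads made up 0.503%, 0.88% and 0.516% of the IL-1 libraries and 0.526%, 1.46% and 1.23% of the PBS libraries, so PBS replicate 1 was as low as the IL-1 libraries. Of 48 interferon-stimulated genes 0 were called, and 3 were higher with the block, Ly6e, Ifitm1 and Mx2 (adjusted p = 0.0385, 0.0338 and 0.0316, edgeR). Of 28 glycolysis genes 0 were called, and with the block Pkm, Eno1 and G6pdx were higher and Hk3 lower. Atf6, a sensor of unfolded protein, was the 1 called gene of 39 in its list, and Sec24d, a coat protein of vesicles that leave the endoplasmic reticulum, the 1 called gene of 43 in the secretory list, with 43.0, 57.1 and 61.0 CPM with IL-1, against 14.9, 16.7 and 15.02 CPM with PBS. Atf6 lost its call without IL-1 replicate 1 or 2 or PBS replicate 1 or 2 (adjusted p 0.0592, 0.057, 0.0795 and 0.135, edgeR). The globin gene Hbb-bt had 253, 133 and 137 CPM with IL-1, against 33.8, 39.9 and 41.8 CPM with PBS, while its neighbour Hbb-bs averaged 18.4 CPM with IL-1 and 10.1 CPM with PBS and the alpha globin gene Hba-a1 1.1 CPM with IL-1 and 3.75 CPM with PBS, neither of them called; globin copies may share reads. Hbb-bt and Trib2 were the called genes of 28 in the erythroid list, Trpc6 the 1 of 25 in the megakaryocyte and platelet list, and the metallothionein gene Mt1, at 22.1, 13 and 22 CPM with IL-1 and 6.24, 3.82 and 2.49 CPM with PBS, the 1 of 30 in the metallothionein and antioxidant list. Of 35 cholesterol synthesis genes and 21 of iron and haem handling 0 were called; with the block Stard4 of the first list was lower and Lcn2 of the second higher.

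**Figure D3:**
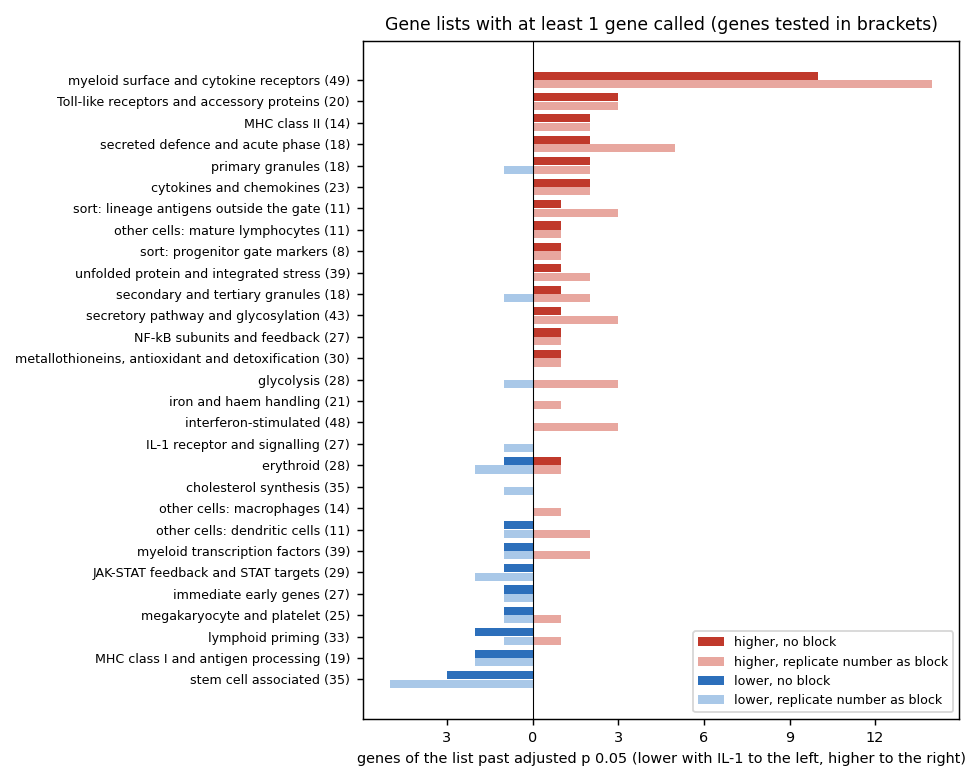
Genes called at an adjusted p under 0.05 in each list that held at least 1 in either fit, higher with IL-1 to the right and lower to the left; dark bars are the fit without and light bars the fit with the replicate number as a block, and the genes tested stand in brackets. Myeloid surface and cytokine receptors had 10 higher genes (14 with the block) and stem cell associated genes 3 lower (5 with the block).

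Few markers of other cell types that a sort can carry along passed the test. The 14 genes of the neutrophil list, of which 11 were tested, summed to 67.1, 22.8 and 56.0 CPM with IL-1, against 90.3, 24.98 and 22.7 CPM with PBS, and 0 of them were called. The 14 macrophage genes summed to 142, 104 and 147 CPM with IL-1, against 114, 173 and 170 CPM with PBS, with 0 called (with the block 1 higher, the scavenger receptor gene Marco); the macrophage genes C1qa and Vcam1 did not pass 4.25 and 26.9 CPM in any library. Of the 11 mature lymphocyte genes tested 1 was called, Cd22, and most of the summed level of the 15 genes in that list (423, 470 and 281 CPM with IL-1, against 348, 465 and 352 CPM with PBS) came from Jchain and Sdc1. Among the 11 dendritic cell genes Ccr9 was lower, and Siglech and Itgax were at 17.8, 13.2 and 10.4 CPM and 8.70, 10.6 and 12.8 CPM with IL-1, against 4.43, 1.84 and 1.13 CPM and 2.43, 3.85 and 6.04 CPM with PBS, both called with the block (adjusted p = 0.0463 and 0.0131, edgeR). The list summed to 1161, 1602 and 1605 CPM with IL-1, against 978, 1323 and 1219 CPM with PBS. Most of that sum came from Tcf4 and from Flt3, which is also counted among the progenitor gate markers. Of 9 genes of stroma and endothelium 0 were called. Of 11 lineage antigens tested 1 was higher, Itgam, 9 had a positive fold change (48.8% of all genes tested did) and the median change was 0.84. With the block 3 were higher, Itgam, Siglech and Itgax. The 16 genes of that list summed to 599.9, 776 and 707 CPM with IL-1, against 366, 472 and 493 CPM with PBS, so these groups did not overlap. Most of each sum came from Ptprc and Itgam. Ptprc, which is also counted among the progenitor gate markers, had 327, 487 and 459 CPM with IL-1. With PBS it had 273, 366 and 355 CPM, and its groups overlapped. Of 8 progenitor gate markers 1 was higher, Ly6a. The part of such cells in the changes above was not tested.

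The promoters of the called genes were searched for motifs in the 250 bases before the RefSeq start (build GRCm38.p6), on both strands. Of the 112 higher genes 84 were found in the RefSeq promoter table, of the 39 lower genes 29, and of all genes tested 10690. The NF-kB consensus was found in 2 of the 84 higher promoters (2.38%), 6 of the 29 lower promoters (20.7%) and 467 of all (4.37%). The PU.1 motif GAGGAAGT was found in 6 of 84 higher promoters (7.14%), 2 of 29 lower promoters (6.9%) and 291 of all (2.72%). The C/EBP motif TTGCNNAA was found in 10.7%, 6.9% and 7.5% of these promoters and the AP-1 motif TGANTCA in 4.76%, 0% and 4.28%. The E-box CACGTG was found in 1 of 84 higher promoters (1.19%), 0 of 29 lower promoters (0%) and 876 of all (8.19%). Shown here, in the direction of the gene with the NF-kB match and up to 20 bases on each side, are both higher genes with a match and 2 of the 6 lower genes, the MHC paralogs; the capitals mark the match, which in H2-Q6 is a pair of overlapping ones. They lie at chr17:55952559-55952608 on the plus strand for Ebi3, chr8:70766864-70766913 on the minus strand for Ifi30, chr17:35424657-35424706 on the plus strand for H2-Q6 and chr17:35439002-35439051 on the plus strand for H2-Q7.
Ebi3: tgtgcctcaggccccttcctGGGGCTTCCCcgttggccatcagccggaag
Ifi30: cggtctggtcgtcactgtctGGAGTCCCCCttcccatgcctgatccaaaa
H2-Q6: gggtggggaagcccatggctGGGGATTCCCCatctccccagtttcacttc
H2-Q7: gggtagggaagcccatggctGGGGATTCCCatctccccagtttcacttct
The other 4 lower genes with an NF-kB match were Cplx2, Gfra1, Nxph1 and Tspan9. Of the 6 higher genes with the PU.1 motif (Atp8b4, Bcl2a1d, Cd5, Kmo, Pirb and Tlr1), 3 are shown with the motif in capitals. Tlr1 lies at chr5:64933559-64933601, Pirb at chr7:3720475-3720522 and Bcl2a1d at chr9:88731927-88731974, all on the minus strand.
Tlr1: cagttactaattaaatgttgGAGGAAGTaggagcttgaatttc
Pirb: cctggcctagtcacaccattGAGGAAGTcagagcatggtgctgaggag
Bcl2a1d: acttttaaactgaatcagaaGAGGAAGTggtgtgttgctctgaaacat
The motif begins 23 bases before the start in Tlr1, 120 in Pirb and 104 in Bcl2a1d. A match describes the letters only, and binding of these factors was not measured in these libraries.

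The response of HPC that lack Kmt2c shares no library with that of wild-type HPC. In ko HPC 47 genes were higher with IL-1 (0.295% of those tested) and 22 lower (0.138%). Of the 112 genes higher in wild-type HPC, 110 had a positive fold change in ko HPC, with a median of 1.16, against 1.80 in wild-type HPC, and 41 were called there; of the 39 lower genes all 39 had a negative fold change in ko HPC, with a median of −1.14, against −1.94 in wild-type HPC, and 10 were called. Among all genes tested 50.4% were positive in ko HPC. The genes were picked by their size in wild-type HPC, so the medians do not compare the strength of the responses. The 51 genes called in both made up 33.8% of the wild-type calls and 73.9% of the ko calls, all in the same direction. Ccl5 had 90.5, 51.4 and 72.95 CPM with IL-1 in ko HPC, against 9.17, 14.98 and 11.9 CPM with PBS, and Mycn had 10.03, 6.78 and 7.998 CPM with IL-1, against 33.1, 20.1 and 31.5 CPM with PBS. Cd74 had 880, 373 and 574 CPM with IL-1 in ko HPC, against 537, 568 and 548 CPM with PBS, so that these groups overlapped, unlike those of the wild type. In the test of the difference itself, ko minus wild type, 0 genes were called (0%; 352 genes at an unadjusted p under 0.05, smallest adjusted p 0.99985, edgeR). DESeq2 called 1 gene higher and 11 lower in the same contrast. The difference for Cd74 was −1.56 ± 0.41, for Cybb −1.85 ± 0.48 and for Il6st 0.00 ± 0.38 on the log2 scale (SE), each with an adjusted p of 0.99985 by edgeR.

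In wild-type HSC, the stem cells above HPC in the hierarchy, 43 genes were higher with IL-1 (0.246%) and 6 lower (0.0343%), and 13 of these genes were also called in HPC (8.61% of the HPC calls and 26.5% of the HSC calls), all in the same direction. Of the 112 genes higher in HPC, 93 had a positive fold change in HSC, 17 a negative one and 2 a fitted change of 0, and 12 were called. Of the 39 genes lower in HPC, 35 had a negative fold change in HSC and 4 a positive one, and 1 was called. Among all genes tested 49.1% were positive in HSC. In the library labelled HSC IL-1 replicate 1, Kmt2c lay at 13.99 CPM, against 41.6 and 42.6 CPM in the other IL-1 libraries and 39.5 to 72.99 CPM in the PBS libraries of wild-type HSC; in ko HSC it lay between 12.7 and 25.6 CPM. This level goes against the label. Without that library 53 genes were higher (0.292%) and 5 lower (0.0275%). Of the 112 genes 96 were then positive and of the 39 genes 32 were negative, while 49.6% of all genes tested were positive. Gpr18, a receptor of immune cells, rose by 2.50 ± 0.27 in HPC and by 3.30 ± 0.43 in HSC on the log2 scale. The test of HPC minus HSC, in which CPM are scaled over 27 libraries, called 4 genes (0.0228%), 2 higher (0.0114%) and 2 lower (0.0114%). Unc93b1 had 448, 515 and 469 CPM with IL-1 in HPC, against 191, 152 and 174 CPM with PBS, and in HSC 111, 96.3 and 128 CPM with IL-1, against 130, 114, 108 and 88.3 CPM with PBS, so that only the HPC groups were apart; the difference was 1.45 ± 0.24 (SE; adjusted p = 0.0161, edgeR). Ehd3 was 3.21 ± 0.52 more raised in HPC (adjusted p = 0.0112, edgeR), where it lay at 1.02 to 4.35 CPM with PBS, while in HSC it was already at 21.6 to 35.4 CPM with PBS. Wfdc17 and its near copy Wfdc18, of the whey acidic protein family of protease inhibitors, had a negative difference. Wfdc17 had 351, 309 and 215 CPM with IL-1 in HPC, against 296, 472 and 297 CPM with PBS, and in HSC 73.6, 111 and 120 CPM with IL-1, against 4.87, 5.82, 3.57 and 5.67 CPM with PBS. The difference was −4.64 ± 0.49 for Wfdc17 (adjusted p = 1.05e-05, edgeR) and −3.57 ± 0.65 for Wfdc18 (adjusted p = 0.0407, edgeR), and reads of the pair may be shared. Without HSC IL-1 replicate 1 the test called 1 gene (0.0055%), lower; Wfdc17 kept its call (adjusted p = 8.37e-06) and Ehd3, Unc93b1 and Wfdc18 did not (0.0624, 0.0698 and 0.0698, edgeR).

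**Figure D4:**
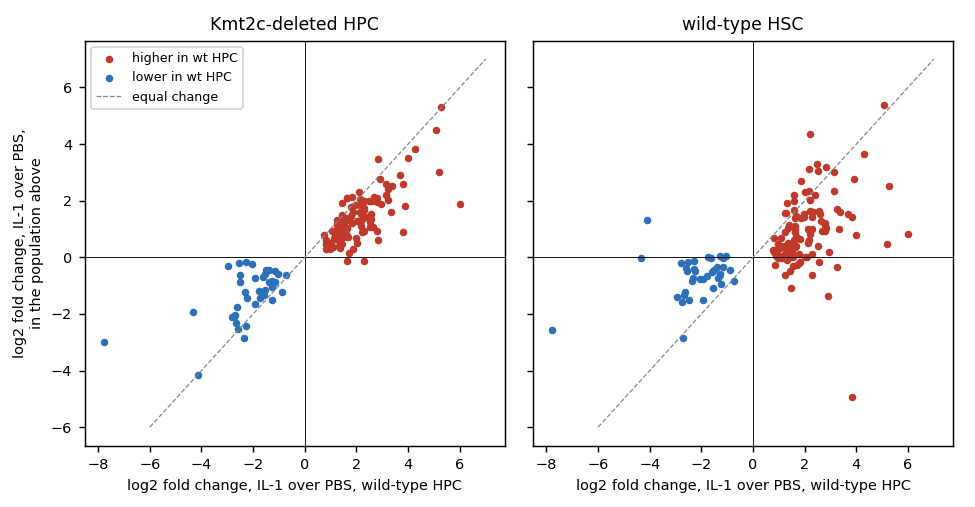
Each point is 1 of the 151 genes called in wild-type HPC; the horizontal axis is the log2 fold change, IL-1 over PBS, in wild-type HPC and the vertical axis that in Kmt2c-deleted HPC (left) or wild-type HSC (right), with the dashed line at equal change. In Kmt2c-deleted HPC 110 of the 112 higher genes and all 39 lower genes keep their sign. In HSC 93 of the 112 higher genes and 35 of the 39 lower genes do.

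The called genes were also looked up in untreated wild-type cells of the series' other experiment, whose libraries the IL-1 comparison did not use. Of the 109 higher genes with a value there, 84 were higher in HPC than in HSC (77.1%) and 75 higher in pGM than in HPC (68.8%). Among all genes tested the share was 49.8% in each of these comparisons. Of the 109 genes, 57 had their highest mean in GMP. In GMP against HPC 65 of 109 were higher, against 44.8% of all genes tested. Of the 39 lower genes 37 were lower in GMP than in HPC, with a median log2 difference of −2.22, against −0.09 for all genes tested, and 24 had their highest mean in HSC. The population of the highest mean was not counted over all genes tested. Ms4a6c averaged 32.4 ± 3.5 CPM in untreated HSC, 32.3 ± 6.2 CPM in HPC, 199 ± 28 CPM in pGM and 301 ± 37 CPM in GMP (SD, n = 4 each), and rose to a mean of 151 CPM with IL-1, against 30.6 CPM with PBS, in HPC. Mycn averaged 114 ± 22 CPM in untreated HSC, 30.3 ± 10.3 CPM in HPC, 10.1 ± 2.9 CPM in pGM and 0.143 ± 0.12 CPM in GMP. Not all genes followed the order of the populations. Ccl5 and Lgmn were low in untreated GMP, at 1.69 ± 1.1 and 1.73 ± 0.34 CPM, although they rose in HPC, and Ly6a averaged 264 ± 26 CPM in untreated HPC and 3.15 ± 0.59 CPM in GMP. Cd74 averaged 657 ± 237 CPM in untreated HSC, 459 ± 129.9 CPM in HPC and 10.3 ± 4.5 CPM in GMP. These counts describe the genes; no test was made over them.

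**Figure D5:**
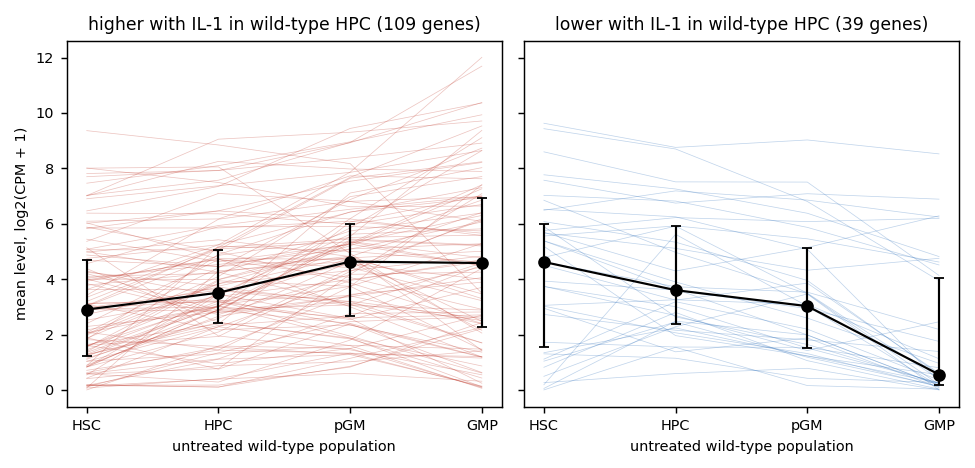
Mean levels in log2(CPM + 1) of the called genes in untreated wild-type HSC, HPC, pGM and GMP (4 libraries each); thin lines are single genes, and black points with bars are medians with quartiles. The median of the 39 lower genes is 4.62 in HSC and 0.56 in GMP, and that of the 109 higher genes is 2.90 in HSC and 4.58 in GMP.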

How the data were processed

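The authors deposited whole-number read counts per gene, with no normalization. The submitters' processing notes name STAR 3.0.4 (aligner) and Subread's featureCounts 1.4.5 (counter). No genome build or strand setting is stated there, and genes that overlap on either strand may therefore share reads. Of 41388 gene IDs, 40254 are in GENCODE M21 (GRCm38), which gave symbols and coordinates; the others hold 0.142% of reads. The 12 HPC libraries (3 per group) were fitted together with edgeR 4.0.16 in R 4.3.3 (filterByExpr, minimum count 10 and minimum total 15; TMM; robust quasi-likelihood test; Benjamini-Hochberg over 15951 genes), with 25437 genes below the filter. HPC minus HSC was tested in a fit of the 27 libraries of the IL-1 experiment (17511 genes). No library pair was identical, and log counts correlated at 0.978 to 0.985 within the wild-type HPC groups. The labels do not say whether replicates are separate animals, and the p-values cover only spread among libraries, possibly technical. HSC libraries are HSC by title, though their cell type entry reads HPCs.

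Same-numbered wild-type libraries deviated together from their group means (r across genes 0.334, 0.170 and 0.230). IL-1 replicate 2 correlated nearly as much with PBS replicate 3 (0.1405) as with PBS replicate 2. The reported fit has no block, and the replicate number was used as a block only in alternative fits. Any pairing by number rests on these correlations and not on the labels, and the libraries numbered 2 differ in sex. Alternatives were DESeq2 1.42.0, limma 3.58.1 voom with sample weights, RLE scaling, no filter, blocks, a Y-linked covariate, other sets of libraries and leaving out each library. On simulated counts at the size of the IL-1 against PBS comparison (15585 genes), 31% of 100 genes changed by log2 1 and 93% of 100 changed by log2 2 were called, and 8 of 132 calls were false.

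Named genes are the 15 called protein-coding genes with the largest change each way (5 CPM or more on average where higher, no overlap, no predicted genes), called members of 39 gene lists, a panel of haematopoietic genes and the called genes of the tests of differences; others, such as Lgals1, Lpxn, Mpeg1, Ms4a6c, Gpr18, Lgmn, Ctsh, Ctsz, Ctsa, H2-Q5 and uncalled list members, were named after their values were seen. The members and lists were chosen with earlier results of these data known.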

Additional observations from a re-analysis of the deposited data

Results flagged for a closer look

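For 4 genes the IL-1 response of wild-type HPC differed from that of wild-type HSC in the test of the difference itself. On the log2 scale, HPC minus HSC, the difference was 3.21 for Ehd3 and 1.45 for Unc93b1, and −4.64 for Wfdc17 and −3.57 for Wfdc18 (edgeR, adjusted p in the report). All 7 HSC libraries and all 6 HPC libraries enter each value. They include HSC IL-1 replicate 1, whose Kmt2c level goes against its label. Without that library Wfdc17 kept its call, while Ehd3, Unc93b1 and Wfdc18 did not (adjusted p 0.0624, 0.0698 and 0.0698, edgeR).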

How the results depend on the processing

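Counts of called genes moved with the tool and the design. Of the 151 genes, 48 were called in all 16 alternatives, 36 were lost in 1 to 3 and 67 in more than 3. While 0 of the 151 changed sign, this could hardly have come out otherwise. The genes were picked as called, their groups did not overlap, and the alternatives reuse the same libraries. Higher and lower genes numbered 273 and 186 by DESeq2, 183 and 116 by limma voom, 179 and 82 without a filter, 215 and 100 with the replicate block, 186 and 77 with a block of genotype and number, 180 and 70 in the 6 wild-type HPC libraries with the block, and 77 and 69 in the fit of 27 libraries. Leaving out 1 library gave 55 to 106 higher and 14 to 39 lower genes, and the Y-linked covariate 99 and 37. With that covariate 125 of the 151 genes kept their call. Those that lost it included Tlr1 (adjusted p = 0.0517), Gpr183 (0.0692), C3 (0.0601), Ctsa (0.0505), Pirb (0.0504), Ebf1 (0.119) and Aif1l (0.0634, edgeR). For ko minus wild type, DESeq2 gave 1 and 11 and the genotype and number block 0 and 6; every other setting gave 0. For HPC minus HSC, DESeq2 gave 11 and 9, the replicate block 20 and 24, voom 9 and 8, the Y-linked covariate 2 and 1 and the 13 wild-type libraries alone 0 and 2; leaving out 1 library gave 0 to 3 higher and 1 to 2 lower, with 0 and 1 without HPC PBS replicate 2, HSC IL-1 replicate 1 or HSC IL-1 replicate 2. The share of higher genes among the calls was 74.2% in the reported fit, 59.5% by DESeq2, 61.2% by voom and 52.7% in the fit of 27 libraries. Uncalled genes were run under these alternatives only for a fixed panel of blood genes plus Wfdc17 and Wfdc18; of these 27 genes, 8 changed sign in at least 1. Beyond what the report gives, the replicate block ended the call of Tmem158 (adjusted p = 0.0503, edgeR). The cause of these moves was not tested. With 3 libraries a group, changes near log2 1 are often missed, and genes of a few CPM rest on few reads.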
